A study of Rattus norvegicus with 9 samples.

Results

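Livers of 3 stressed rats that the sample labels mark as Major Depression (CUMS 1, 2 and 3) were compared with livers of 3 stressed rats marked as Mild Depression (CUMS 4, 5 and 6). They make up 6 of the 9 rats of the series, with 1 Affymetrix rat expression array per rat. All were male Goto-Kakizaki (GK) rats, a strain that becomes diabetic without any treatment, and stress began once diabetes had appeared. The 6 CUMS rats were caged alone and went through chronic unpredicted mild stress (CUMS) for 8 weeks, that is, a changing daily stressor such as restraint, swimming in hot or cold water, a tilted cage or reversal of day and night. The other 3 rats, control 1, 2 and 3, were GK rats kept without stress. Their values are given for orientation and took no part in the comparison. All rats had received repaglinide, an oral drug for diabetes, in a pharmacokinetic experiment before the livers were taken. How a rat came to be labelled Major or Mild, and the hour at which it was killed, are not given in the sources used here.

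The liver answers stress through glucocorticoids and catecholamines, which act on gluconeogenesis, on drug-metabolizing enzymes and on the circadian clock of hepatocytes. Drug metabolism is set largely by the nuclear receptors CAR (Nr1i3) and PXR (Nr1i2), which switch on cytochromes P450, conjugating enzymes and transporters. The clock is a feedback loop in which BMAL1 with CLOCK or NPAS2 drives the Per, Cry and Nr1d genes through E-boxes, and the products of these genes hold BMAL1, CLOCK and NPAS2 back. Stellate cells and fibroblasts lie between the hepatocytes and the blood vessels and make most of the collagen of the liver. The comparison asks how far livers of the Major and Mild labels differed in these functions after the same stress.

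Signals were MAS 5.0 intensities in arbitrary units, scaled by the authors to the same mean on every array, and were compared as log2 values. Array medians lay between 107 and 123 in the 6 stressed rats. A signal compares rats for 1 probe set and does not rank genes against each other. In whole liver, fewer cells of a type and less RNA per cell cannot be told apart. The hepatocyte markers Alb, Ttr, Apoa1, Serpina1 and Cps1 had signals between 17096 and 33461 in all 6 stressed rats, as liver should have. The 3′ to 5′ signal ratio of beta-actin, a measure of RNA integrity, was highest in CUMS 2 (5.23) and CUMS 4 (4.96), which lie in different label groups, and lay between 3.18 and 3.73 in the other 4 stressed rats.

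No probe set passed the adjusted threshold between the labels. Of 31042 probe sets, 0 (0%) passed a Benjamini-Hochberg adjusted p under 0.05 in limma, and the smallest adjusted p was 0.9996. At an unadjusted p under 0.05 there were 1163 probe sets, of which 650 (2.09%) were higher and 513 (1.65%) lower in CUMS 1–3. Signals of the labels did not overlap, with all 3 rats of a label above all 3 of the other, for 1513 probe sets (4.87%) with higher and 1351 (4.35%) with lower signals in CUMS 1–3. The study itself used an ANOVA without adjustment (p under 0.05) together with a change of 1.5-fold upwards or to 0.5 of the signal downwards. These limits were met by 336 higher (1.08%) and 173 lower (0.557%) probe sets, of which 0 passed after adjustment. With 1 probe set per gene, 14217 genes were measured, 48.8% had a higher mean in CUMS 1–3, and the median difference was -0.0063 on the log2 scale. These are the shares against which the counts of each gene group below are to be read.

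Profiles of rats with the same label were about as alike as those of rats with different labels. The median correlation of log2 signals was 0.9326 between rats of the same label (6 pairs) and 0.9322 between rats of different labels (9 pairs). This difference of 0.000338 had p = 0.9 in an exact permutation test over the 10 ways to divide 6 rats into 3 and 3, in which 0.1 is the smallest p possible. The array most like it belonged to a rat of the same label for CUMS 2, and to a rat of the other label for the other 5. With the upper 40% of probe sets by signal, pairs of different labels were the more alike, with a difference of -0.00219 (exact permutation p = 0.4).

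The values below therefore describe genes whose 6 signals lined up with the labels, without a call. Under the naming rule (own symbol, signal above the median, a difference of at least 1.5-fold and no overlap), 54 probe sets with higher and 46 with lower signals in CUMS 1–3 qualified, and the 12 of smallest p in each direction are named. Each difference is given as log2 CUMS 1–3 minus CUMS 4–6 with its standard error from limma. This error draws on the 3 rats per label and also on the spread of other probe sets of similar signal. It is therefore not the spread of these rats alone. Intervals are 95% intervals of limma without adjustment for the number of probe sets. Adjusted p was 0.9996 or higher for all 24 genes in limma, so none passed. Further members of the gene lists are named as examples, chosen after their values were seen.

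Of the 12 genes with higher signals in CUMS 1–3, Slc25a25, a mitochondrial carrier of ATP and phosphate, had signals of 1000.4, 1197 and 1229 in CUMS 1, 2 and 3 and of 357, 718 and 577 in CUMS 4, 5 and 6, a difference of 1.11 ± 0.23 (95% interval 0.58 to 1.63). All 3 Major rats lay above all 3 Mild rats, and the controls, at 2839, 826 and 715, ranged from within the Mild signals to above the Major ones. Mfsd2a, a transporter of lysophosphatidylcholine that rises in the fasted liver, had 1906, 3299 and 2944 in CUMS 1, 2 and 3 and 1429.8, 1555 and 1381 in CUMS 4, 5 and 6 (0.86 ± 0.19). The 3 Mild rats lay close together here, while the Major rats and the controls (2693, 2258 and 1114) spread more widely. Pdp2, a phosphatase that switches pyruvate dehydrogenase on, had 531, 777 and 604 against 323, 446 and 443 (0.66 ± 0.19). A second Pdp2 probe set differed in the same direction without overlap (0.76).

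Por, the reductase that passes electrons to all microsomal cytochromes P450, had signals of 2611, 3416 and 2317 in CUMS 1, 2 and 3 and of 1899.8, 1491 and 2097 in CUMS 4, 5 and 6 (0.60 ± 0.17, interval 0.21 to 0.98). The gap between the labels was narrow, from 2097 in CUMS 6 to 2317 in CUMS 3, and a dimmer Por probe set did not separate them (0.18). Gcnt2, a glycosyltransferase that branches sugar chains, had 1233, 2319.7 and 1057 against 1012, 641 and 504 (1.07 ± 0.32). CUMS 2 was far above the others, and CUMS 3 and CUMS 4 almost met. Sybu, which ties cargo to kinesin motors, had 350.1, 528 and 600.2 against 334, 289 and 285 (0.67 ± 0.21), and here CUMS 1 and CUMS 4 almost met. Its second probe set was dim, with signals of 9.07 to 44.5, and lay in the opposite direction with overlap (-0.70).

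The other higher genes were Kmt2b, Ankrd11, Ddx55, Luc7l3, Leng8 and Tlnrd1. Kmt2b, a histone H3 lysine methyltransferase, had 283, 326 and 327 in CUMS 1, 2 and 3 and 197, 151 and 237 in CUMS 4, 5 and 6 (0.70 ± 0.21), and its second, dimmer probe set overlapped (0.09). Ankrd11, a chromatin regulator, had 186, 161 and 286 against 93.4, 136 and 99.9 (0.92 ± 0.29). CUMS 3 carried the highest Ankrd11 signal, and the other 2 Ankrd11 probe sets overlapped between labels (0.17 and 0.61). Ddx55, an RNA helicase, had 141, 179 and 184 against 94.1, 99.6 and 90.9 (0.81 ± 0.25). The Mild rats were close to each other, and all controls (168, 141 and 189) were above them. Luc7l3, a splicing factor, had 865, 967 and 1238 against 525, 794 and 683 (0.62 ± 0.19), and its brightest probe set also did not overlap (0.22), whereas its dimmest did (0.25). Leng8 (0.84 ± 0.26) and Tlnrd1 (0.63 ± 0.18) completed the 12. Leng8 differed in 1 of its 2 probe sets, the other being at -0.15.

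Of the 12 genes with lower signals in CUMS 1–3, Asap2 had the smallest limma standard error of all 24. Asap2, a GTPase-activating protein for Arf, had signals of 839.6, 788 and 736 in CUMS 1, 2 and 3 and of 1278, 1361 and 1087 in CUMS 4, 5 and 6 (-0.65 ± 0.12, interval -0.93 to -0.37). Rab14, a small GTPase of endosomes, had 1117, 859.6 and 1009 against 1223, 1667 and 1910.4 (-0.67 ± 0.17). This separation came from 1 of 5 Rab14 probe sets, and the other 4 lay between -0.15 and 0.28. Rab1b, a small GTPase of transport from the endoplasmic reticulum to the Golgi, had 383, 371 and 308 against 446, 541 and 625 (-0.60 ± 0.17). All 4 Rab1b probe sets had lower means in CUMS 1–3, between -0.63 and -0.20.

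Id4, an inhibitor of basic helix-loop-helix transcription factors, had 298, 295 and 345 in CUMS 1, 2 and 3 and 514, 401 and 536 in CUMS 4, 5 and 6 (-0.62 ± 0.17). Its 4 probe sets all had lower means in CUMS 1–3 (-0.62 to -0.24), and 3 of the 4 did not overlap. Gstt3, a theta-class glutathione S-transferase, had 3773, 5299 and 2732 against 6727, 5809 and 6583 (-0.75 ± 0.21). The controls (3551, 3223 and 3645) lay with the Major rats and below every Mild rat. RT1-N2, a non-classical MHC class I gene, had 92.7, 134 and 110.2 against 260.0, 212 and 173 (-0.93 ± 0.26), and MHC class I genes are alike enough for probes to share signal. Kmt5c, a histone H4 lysine methyltransferase, had 160.2, 216 and 221 against 256, 344 and 404 (-0.74 ± 0.23). Pin4, a peptidyl-prolyl isomerase, had 459.8, 442 and 419 against 892, 624 and 536 (-0.60 ± 0.19). The Major rats were close to each other for Pin4, the difference was -0.39 without CUMS 4, and the controls (873, 594 and 945) were all above them. Commd2 (-0.84 ± 0.25, with its brighter probe set at 0.12) and the uncharacterised LOC102546992 (-0.86 ± 0.19) were the other genes of this group, together with Npas2 and Igfbp3, which are described with their functions below.

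**Figure D1:**
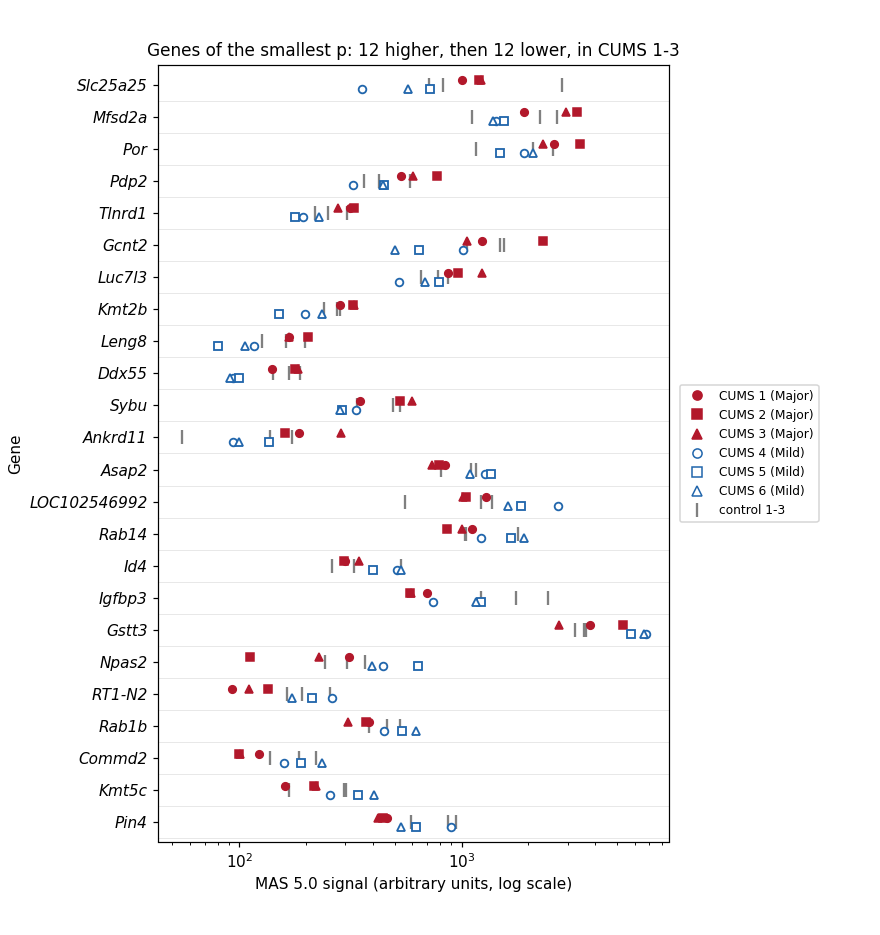
Signals of the 24 named genes in each rat, on a log axis, with filled red symbols for CUMS 1–3, open blue symbols for CUMS 4–6 and grey bars for control 1–3. Red and blue symbols do not overlap in any row, which is how the genes were chosen, while control signals reach into both groups, as for Slc25a25 (2839, 826 and 715).

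The circadian clock genes showed an arrangement in which the activators Bmal1, Npas2 and Clock had lower and Per2, Per3 and Dbp higher means in CUMS 1–3. Of 18 clock genes measured, 12 had higher and 6 lower means, the median difference was 0.22 against -0.0063 over all genes, and none passed adjustment. At an unadjusted p under 0.05 there were 1 higher and 2 lower genes, where the share over all genes was 1.71% and 1.66%. The promoters of 4 of them are shown because Bmal1 and Npas2 had lower and Usp2 and Per2 higher means, and clock proteins act on such genes through short promoter motifs. They are the 250 bases before the start in RefSeq on GRCr8, written 5′ to 3′ on the strand of the gene, with matched motifs in capitals. Bmal1 is at chr1:176766078-176766327 (+), Npas2 at chr9:48959315-48959564 (+), Usp2 at chr8:53310620-53310869 (+) and Per2 at chr9:99496994-99497243 (-).
Bmal1: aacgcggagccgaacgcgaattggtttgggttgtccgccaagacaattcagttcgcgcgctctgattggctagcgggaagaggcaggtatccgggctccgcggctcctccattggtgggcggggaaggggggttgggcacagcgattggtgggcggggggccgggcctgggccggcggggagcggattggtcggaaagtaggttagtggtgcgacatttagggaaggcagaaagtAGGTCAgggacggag
Npas2: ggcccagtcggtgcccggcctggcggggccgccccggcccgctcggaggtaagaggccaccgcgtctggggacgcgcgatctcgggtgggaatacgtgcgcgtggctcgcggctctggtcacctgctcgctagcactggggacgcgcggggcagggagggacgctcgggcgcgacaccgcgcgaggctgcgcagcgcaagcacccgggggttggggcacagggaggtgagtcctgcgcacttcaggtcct
Usp2: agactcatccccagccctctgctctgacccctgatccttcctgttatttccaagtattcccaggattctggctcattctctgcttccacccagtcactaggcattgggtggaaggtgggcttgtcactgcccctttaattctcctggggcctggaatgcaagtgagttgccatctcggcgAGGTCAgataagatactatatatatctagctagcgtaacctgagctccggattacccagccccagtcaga
Per2: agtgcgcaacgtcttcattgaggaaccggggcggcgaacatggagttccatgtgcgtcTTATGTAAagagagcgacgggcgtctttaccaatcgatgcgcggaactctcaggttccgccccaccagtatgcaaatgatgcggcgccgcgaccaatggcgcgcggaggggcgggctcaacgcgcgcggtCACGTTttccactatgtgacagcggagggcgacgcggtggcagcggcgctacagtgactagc

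The search covered both strands for the E-box CACGTG, its variant CACGTT, the D-box TTATGTAA and AGGTCA, the core letters of sites for REV-ERB and ROR receptors, none of which overlap each other in these promoters. AGGTCA began 15 bases before the start of Bmal1 and 70 bases before that of Usp2. Per2 held CACGTT at 62 and the D-box at 192 bases before its start. The Npas2 window held none of these letters. RefSeq gave 18 promoters for 16 of the 18 measured clock genes. CACGTG stood in 4 of these 18 (Bhlhe40, Bhlhe41, Nr1d1 and Tef) against 5.59% of all 33469 promoters, CACGTT in 3 (Cry2, Nr1d1 and Per2) against 4.07%, AGGTCA in 3 (Bmal1, Nr1d2 and Usp2) against 14.1% and TTATGTAA in 1 against 0.828%. These are matches of letters and do not show binding.

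Npas2, which pairs with BMAL1 as CLOCK does, had signals of 312, 112 and 228 in CUMS 1, 2 and 3 and of 443, 639.5 and 394 in CUMS 4, 5 and 6, a difference of -1.27 ± 0.35 (95% interval -2.06 to -0.47). CUMS 2 was the lowest of the 6 and CUMS 5 the highest, and the labels did not overlap. Bmal1, the partner common to both, had 205, 120.2 and 239.9 against 304, 274 and 276 (-0.65 ± 0.26, interval -1.25 to -0.06). CUMS 2 was again lowest, and the 3 Mild rats were close to each other. Clock itself had 1099.6, 909 and 1144 against 1074, 1438 and 1207 and overlapped between labels (-0.24 ± 0.14).

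Usp2, a deubiquitinase with strong daily rhythm in liver, ran the other way, with 948, 2194 and 644 in CUMS 1, 2 and 3 and 408, 638 and 638 in CUMS 4, 5 and 6 (1.004 ± 0.39, interval 0.13 to 1.88). CUMS 2 was far above the others, whereas CUMS 3 almost met CUMS 5 and CUMS 6. Per2, a repressor of the loop, had 1721, 2599 and 602 against 531, 1236 and 988 (0.68 ± 0.49, interval -0.42 to 1.79). Dbp, a PAR-domain activator that binds the D-box, had 1998, 3376 and 857 against 983, 1419 and 885 (0.74 ± 0.42). For both genes CUMS 1 and CUMS 2 were the highest of the 6, while CUMS 3 lay among the Mild rats for Per2 and below all of them for Dbp. Per3 had 757, 695 and 409.7 against 131, 464 and 449 (0.99 ± 0.45), with the lowest signal in CUMS 4 and CUMS 3 below 2 of the Mild rats. Nr1d1, the REV-ERB repressor of Bmal1, had 832, 706 and 608 against 716, 861 and 506 (0.07 ± 0.20, interval -0.39 to 0.52).

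Within the Major label, CUMS 3 differed from CUMS 1 and CUMS 2 for these genes. CUMS 2 was the highest of the 6 rats for 10 of the 18 clock genes and CUMS 3 for none of them, and CUMS 3 was the lowest for 6. Without CUMS 2 the median difference of the list was 0.05, and without CUMS 3 it was 0.38. Without both CUMS 2 and CUMS 4, the arrays of highest actin ratio, it was -0.04, and whether RNA quality took part was not tested.

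**Figure D2:**
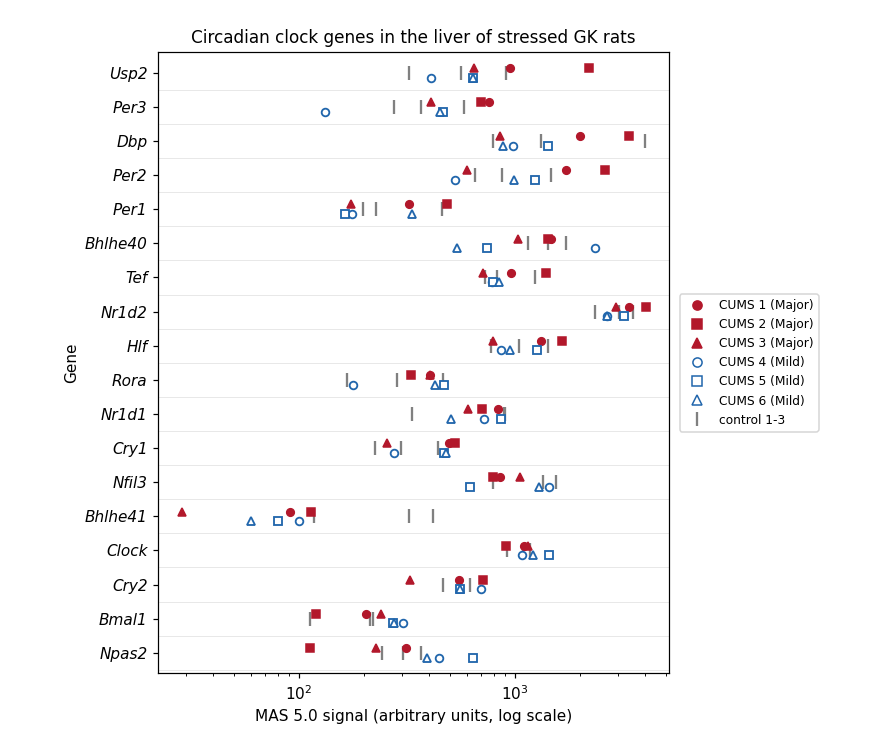
Signals of 18 circadian clock genes in each rat on a log axis, ordered by the difference between the labels (symbols as in the plot of the leading genes). Filled circles and squares (CUMS 1 and 2) lie to the right for Usp2, Per3, Dbp and Per2, filled triangles (CUMS 3) do not follow them for Dbp and Per2, and for Bmal1 and Npas2 all filled symbols lie to the left of the open ones.

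Stellate cell and fibroblast markers had lower signals in CUMS 1–3 across most of the list. Of 21 genes, 20 had lower means, the median difference was -0.38 against -0.0063 over all genes, 5 had an unadjusted p under 0.05 and a lower mean (1.66% over all genes), and none passed adjustment. Igfbp3 and Col14a1, among these 5, were also drawn as lower in stressed rats by the study from these same arrays, so the count is not independent of that choice. Signals did not overlap for 5 genes, all lower (background 4.35%). The summed signal of the list was 15411 to 18097 in CUMS 1–3 and 19370 to 22042 in CUMS 4–6. All 3 controls were higher still, at 23108, 24232 and 57362.

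Pdgfra, the receptor for platelet-derived growth factor on stellate cells and fibroblasts, had 433, 488 and 471 in CUMS 1, 2 and 3 and 687, 619 and 760.0 in CUMS 4, 5 and 6 (-0.57 ± 0.13, interval -0.87 to -0.26). The Major rats were close to each other, and the controls (716, 904 and 1083) lay among or above the Mild rats. Col1a2, a chain of collagen I, had 315, 213 and 300.0 against 527, 354 and 440.4 (-0.68 ± 0.21), without overlap. Col3a1, the chain of collagen III, had 2161, 1415 and 1599.8 against 3787, 1925 and 3344 (-0.77 ± 0.25), and CUMS 5 lay below CUMS 1. The other chain of collagen I, Col1a1, had 135, 133 and 119 against 160.4, 109 and 97.4 and overlapped (0.11 ± 0.28).

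Igfbp3, the main carrier of insulin-like growth factors in blood, is made by non-parenchymal cells of the liver. Its probe set of smaller p had 698, 588 and 595 in CUMS 1, 2 and 3 and 741, 1226 and 1160.4 in CUMS 4, 5 and 6 (-0.70 ± 0.19). The brighter probe set had 1214, 784 and 1025 against 1012, 1629.9 and 1698 and overlapped, since CUMS 4 lay below CUMS 1 and CUMS 3 (-0.51 ± 0.22). Col14a1, a collagen that decorates fibrils, had 548, 589 and 492 against 582, 696 and 868 (-0.38 ± 0.17). Desmin, the intermediate filament of stellate cells (Des), had 141, 135 and 112 against 162, 193 and 189 without overlap (-0.49 ± 0.23), and Reln, secreted by stellate cells, had 808, 1047 and 979 against 1063, 1146 and 1142 (-0.25 ± 0.13). Lrat, the enzyme with which stellate cells store vitamin A, overlapped (-0.15 ± 0.14), as did Vim (-0.06 ± 0.16) and Sparc (-0.08 ± 0.20).

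Summed signals overlapped between the labels for the Kupffer cell and for the endothelial markers. The Kupffer cell and macrophage list had lower means for 11 of 13 genes (median -0.14, or 0.0068 without CUMS 2), with summed signals of 30798 to 40609 in CUMS 1–3 and 32514 to 43567 in CUMS 4–6, which overlap. The endothelial list had 6 of 12 lower (median -0.0083), with sums of 17093 to 18555 against 17271 to 19416. Whether the share of stellate cells in the sampled tissue took part in the lower marker signals was not tested. Without CUMS 5 the median of the stellate and fibroblast list was -0.21, and without each other rat it lay between -0.40 and -0.28.

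**Figure D3:**
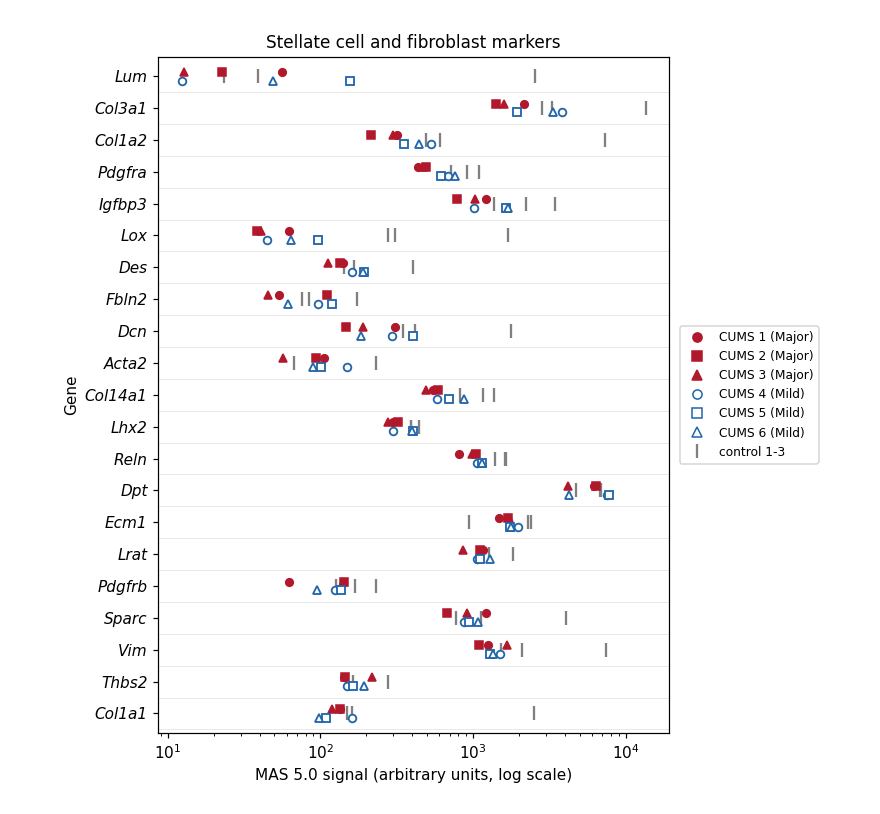
Signals of 21 stellate cell and fibroblast markers in each rat on a log axis, ordered by the difference between the labels (symbols as in the plot of the leading genes). Filled symbols lie left of all open ones for Col1a2, Pdgfra, Des, Reln and Ecm1, and 1 control, at the far right for Col3a1, Col1a2 and Col1a1, exceeds every stressed rat.

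Immediate early genes, which answer growth factors and stress hormones within minutes, had lower means in CUMS 1–3 for 15 of 19 genes (median -0.20). An unadjusted p under 0.05 was reached by 3 of the 19, all lower (1.66% over all genes), and none passed adjustment. Ier3 had 1433, 1244 and 1515 in CUMS 1, 2 and 3 and 2004, 1546 and 1871 in CUMS 4, 5 and 6 (-0.37 ± 0.13). Zfp36, which destabilises cytokine mRNAs, had 1306, 1235 and 1293 against 1793, 1384 and 1566 (-0.30 ± 0.12). Nr4a3, an orphan nuclear receptor, had 31.8, 63.4 and 66.6 against 117, 93.0 and 90.5 (-0.96 ± 0.41), which is below the median signal of the arrays. CUMS 4 was the highest of the 6 rats for 9 of the 19 genes. It had 2886 for Dusp1, a phosphatase of MAP kinases, where the other 5 rats had 912 to 1462, and 608 for Junb, where the others had 211 to 285. Without single rats the median of the list lay between -0.39 (without CUMS 5) and -0.14 (without CUMS 4).

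Hepatocyte genes for plasma proteins had slightly lower means in CUMS 1–3. Alb (albumin) had 22976, 17128 and 19912 in CUMS 1, 2 and 3 and 29583, 27539.6 and 25609.9 in CUMS 4, 5 and 6 (-0.47 ± 0.13, interval -0.77 to -0.18). Every Major rat lay below every Mild rat, and the controls (26932, 26122 and 20382) spread over both. Ttr (transthyretin) had 22347, 23701 and 20178 against 26524, 26549 and 26245 (-0.26 ± 0.11), and Serpina1 (alpha-1-antitrypsin) 29537, 29150.1 and 25517 against 30740.5, 31503 and 33190.3 (-0.18 ± 0.11), both without overlap. Apoa1 (-0.12 ± 0.15) and the urea cycle enzyme Cps1 (-0.02 ± 0.13) overlapped. Over 11 hepatocyte markers 9 had lower means (median -0.13, or -0.08 without CUMS 3), but after quantile normalization the median was 0.0039, so the direction of the list depended on the scaling.

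The glucocorticoid receptor Nr3c1 had 2853, 3832 and 3201 in CUMS 1, 2 and 3 and 4983, 3123 and 2631 in CUMS 4, 5 and 6 (-0.08 ± 0.22, 95% interval -0.57 to 0.41). Of 20 genes in the list of the receptor and its targets, 5 had higher and 15 lower means (median -0.14, or -0.06 without CUMS 3), and 0 reached an unadjusted p under 0.05. Signals did not overlap for 1 of the 20, which was lower, where the share over all probe sets was 4.87% higher and 4.35% lower. This was Tdo2, tryptophan dioxygenase, with 27478, 27732 and 25980.3 against 28706, 30262 and 30824 (-0.15 ± 0.10). Gadd45b, the member of smallest limma p, had 80.9, 98.2 and 246 against 301, 150 and 268 and overlapped (-0.88 ± 0.44). Tsc22d3 (GILZ), a direct target and among the 5 with higher means, had 2729, 4422 and 3014 against 3233, 2746 and 2977 (0.15 ± 0.17). Fkbp5, a chaperone of the receptor, was highest in CUMS 3, with 451, 472 and 986 against 543, 368 and 395 (0.47 ± 0.29). Mt2A, a metallothionein induced by glucocorticoids and zinc, had high and low signals within each label, at 2729.8, 3741 and 19188 in CUMS 1, 2 and 3 and 18522, 3728 and 12209.7 in CUMS 4, 5 and 6. CUMS 3, 4 and 6 were the high ones, and Mt1 and Hmox1 had their lowest signals in CUMS 1, 2 and 5 as well.

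Drug metabolism was the subject of the study. Nr1i3 (CAR) had 518, 744 and 766 in CUMS 1, 2 and 3 and 365, 619 and 720.4 in CUMS 4, 5 and 6, with controls at 384, 212 and 388 (0.29 ± 0.26, interval -0.29 to 0.87). CUMS 4 had the lowest stressed signal and CUMS 6 lay with the Major rats, and without CUMS 4 the difference was -0.0044. Nr1i2 (PXR) had 1595, 2112 and 2213 against 1611, 1712 and 1777 (0.20 ± 0.14). Of 22 receptors and targets of CAR and PXR, 7 had higher and 15 lower means (median -0.18, or -0.06 without CUMS 3). At an unadjusted p under 0.05 there were 2 higher and 1 lower, where the share over all genes was 1.71% and 1.66%.

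Por, described above, and Sult2a2, a hydroxysteroid sulfotransferase, were the 2 higher ones. Sult2a2 was also drawn as higher in stressed rats by the study from these same arrays, so the count is not independent of that choice. Sult2a2 had 154, 179 and 226 against 56.5, 96.5 and 165 (0.93 ± 0.39), with controls at 74.3, 59.3 and 70.2. CUMS 6 overlapped the Major rats, and without CUMS 4 the difference was 0.54. Ephx1, microsomal epoxide hydrolase, was the lower one, with 11789, 9673 and 8853 against 11501, 14509 and 12179 (-0.34 ± 0.14), and CUMS 1 overlapped CUMS 4. The abundant Cyp3a cytochromes overlapped between the labels. Cyp3a2 was between 21778 and 24582 in 5 rats and at 8119 in CUMS 3, giving -0.50 ± 0.35. Cyp3a18 had 9319.9, 12339 and 10020.2 against 8936, 10726 and 14154 (-0.08 ± 0.17), and Cyp3a23-3a1 had a difference of -0.16 ± 0.15. Near-identical Cyp3a and Cyp2c genes may share probes.

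The genes that the study drew as higher in stressed than in control rats give a further view of the labels. The fold changes that the study printed for Nr1i3 and Cyp17a1 match the means of CUMS 1–3 over controls (676 over 328 and 714 over 246), with CUMS 4–6 unused. High signals in CUMS 1–3 were thus part of how such genes were chosen, and their direction between the labels is not independent evidence. Each gene was read from its probe set of highest mean signal. Of 26 measured, 17 had higher and 9 lower means in CUMS 1–3 than in CUMS 4–6 (median 0.17). An unadjusted p under 0.05 was reached by 2 of them, Sult2a2 and Colq, both higher (1.71% over all genes), and none passed adjustment. The study printed dimmer probe sets for Plekha8 (0.66, interval 0.10 to 1.22), Pacsin2 (0.44, interval 0.05 to 0.83) and Topbp1 (0.61, interval -0.25 to 1.47). These were higher in CUMS 1–3 without overlap, where the brightest were at -0.13, 0.19 and 0.13. The dimmest Plekha8 probe set was lower without overlap (-0.82). Colq, the collagen tail of acetylcholinesterase, had 114, 142 and 199 against 72.0, 107 and 93.3 (0.72 ± 0.31), without overlap. Cyp17a1, an enzyme of steroid synthesis, had 1004, 691 and 448 in CUMS 1, 2 and 3 and 553, 553 and 636 in CUMS 4, 5 and 6 (0.23 ± 0.25), and it was above the highest control in all 6 (271, 319 and 148). Aldh1a1, a retinaldehyde dehydrogenase, had 5791, 8233 and 6601 against 6298, 9777 and 8595 (-0.25 ± 0.18), and Ugt2b1, a glucuronosyltransferase, 6904, 7288 and 8049.5 against 7579, 7844 and 10476 (-0.21 ± 0.14). Both had lower means in CUMS 1–3, although all 6 stressed rats exceeded the controls (3654, 2435 and 3803 for Aldh1a1 and 5384, 4832 and 3717 for Ugt2b1).

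CUMS 4 stood low in this list. It was the lowest of the 6 rats for 15 of the 26 genes, among them Eci1 (2741, others 3912 to 5081), Hsdl2 (2469, others 3546 to 4876), Glyatl2 (1200.4, others 2143 to 3210) and Zrsr2 (70.7, others 228 to 331). Without CUMS 4 the median was 0.05, and without both CUMS 2 and CUMS 4, the arrays of highest actin ratio, it was -0.0023. The genes drawn as lower in stressed rats came from the same comparison by the study, so their direction is not independent evidence either. All 11 measured had lower means in CUMS 1–3 (median -0.38), 3 with an unadjusted p under 0.05 (1.66% over all genes). Of these 3, Igfbp3 and Col14a1 are in the stellate and fibroblast list as well, and RGD1309362 had 2943, 2188 and 4234 against 5354, 3562 and 4861, with controls at 9921, 7004 and 5005 (-0.59 ± 0.23, or -0.36 without CUMS 2).

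**Figure D4:**
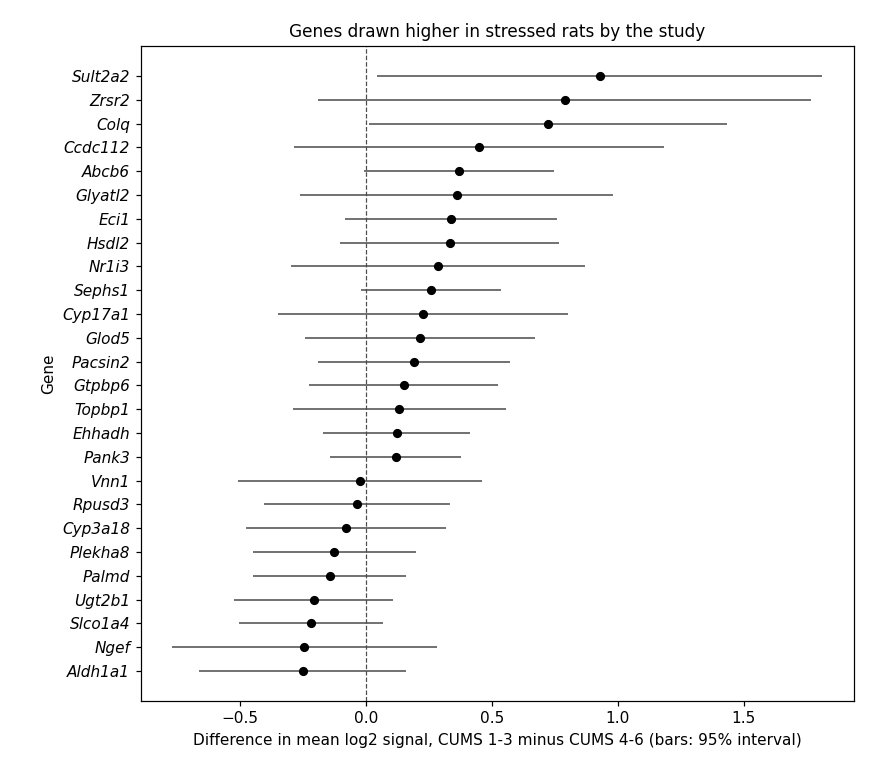
Difference in mean log2 signal between CUMS 1–3 and CUMS 4–6 for 26 genes that the study drew as higher in stressed rats, with bars for the 95% interval of limma. Each gene is shown by its probe set of highest mean signal. For Plekha8, Pacsin2 and Topbp1 this is not the probe set that the study printed. Among the plotted probe sets, only Sult2a2 (0.05 to 1.81) and Colq (0.02 to 1.43) have intervals above 0, without adjustment for the number of genes. The unplotted probe sets printed by the study also lie above 0 for Plekha8 (0.10 to 1.22) and Pacsin2 (0.05 to 0.83), but not for Topbp1 (-0.25 to 1.47).

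In lists of intermediary metabolism, the rat that was highest or lowest for most genes came from either label. Cholesterol synthesis had higher means for 14 of 19 genes (median 0.17), with 0 at an unadjusted p under 0.05. CUMS 2 was the highest for 13 of the 19 and CUMS 5 the lowest for 12, and without CUMS 5 the median was -0.07. Sqle, squalene epoxidase, showed this with 1367, 2712 and 1089 in CUMS 1, 2 and 3 and 1320.3, 786 and 1716 in CUMS 4, 5 and 6 (0.39 ± 0.35). Lipogenesis and glycolysis had 14 of 22 higher (median 0.09), with CUMS 1 the highest for 11 and CUMS 6 the lowest for 12. Scd, stearoyl-CoA desaturase, had 20383, 6521 and 6488 against 22914, 25351 and 3967, so that CUMS 1, 4 and 5 were high and CUMS 2, 3 and 6 low, with both labels on each side. Without CUMS 1 the median of this list was -0.06.

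Fatty acid oxidation and PPAR-alpha targets had 18 of 31 higher (median 0.03, or -0.03 without CUMS 3). CUMS 3 was the highest for 13 of the 31 and CUMS 4 the lowest for 16. Angptl4, an inhibitor of lipoprotein lipase, had 1169.6, 2129 and 4355 against 6412, 2990.0 and 1639 (-0.51 ± 0.53). Bile acid synthesis and transport had 16 of 18 lower (median -0.16, or -0.06 without CUMS 6). Cyp8b1, which sets the share of cholic acid, had 3674, 3297 and 3599 against 5723, 3809.7 and 4680.1 without overlap (-0.41 ± 0.14, interval -0.74 to -0.08, and -0.26 without CUMS 4), whereas Cyp7a1, the rate-limiting enzyme, was at 19331 in CUMS 6 and between 5417 and 7821 in the other 5. Amino acid and urea metabolism had 25 of 31 lower (median -0.09, or -0.03 without CUMS 4 and -0.16 without CUMS 5), with Cth, which makes cysteine, at 16072, 14751 and 13963 against 19787, 16314 and 21219 (-0.35 ± 0.12) and Hal, histidase, at -0.39 ± 0.16. Gluconeogenesis and insulin signalling had 9 of 19 higher (median -0.03, or 0.04 without CUMS 4), and Pck1, its rate-limiting enzyme, had 25354, 28261 and 23512 against 26823, 26686 and 30787 (-0.13 ± 0.12).

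Genes of mitochondrial respiration had lower means in CUMS 1–3 for 28 of 30 members, by small amounts (median -0.06), and 0 reached an unadjusted p under 0.05. CUMS 4 was the highest of the 6 rats for 18 of the 30 and CUMS 3 the lowest for 24, and without CUMS 3 the median was -0.01. Cox5a had 706, 554 and 604 against 715, 739.8 and 792 (-0.27 ± 0.13). After quantile normalization the median of the list was 0.0044, so its direction depended on the scaling. All 12 ribosomal protein genes had lower means (median -0.09), which became -0.00065 after quantile normalization.

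Immune genes had high and low rats within each label. The interferon response list had lower means for 20 of 29 genes (median -0.14), and CUMS 2 was the lowest of the 6 for 23 of them. Irf7, a regulator of interferon genes, had 930.1, 404 and 907 in CUMS 1, 2 and 3 and 1084, 636 and 1222 in CUMS 4, 5 and 6 (-0.44 ± 0.34). Without CUMS 2 the median of the list was 0.10, the opposite direction. S100a8 and S100a9, the calprotectin subunits of neutrophils, were highest in CUMS 3. S100a8 had 324, 921 and 3538 against 713, 467 and 380.1 (1.02 ± 0.69), and S100a9 789, 2078 and 6283 against 1871, 1172 and 899 (0.80 ± 0.61). Without CUMS 3 the S100a8 difference was 0.12. Of 9 neutrophil markers 8 had higher means (median 0.37), which became 0.08 without CUMS 3. The cell cycle list had 23 of 28 higher (median 0.14), and CUMS 3 was the highest for 17 of the 28. Mki67 was at 179 in CUMS 3 and between 36.7 and 103 in the other 5, and without CUMS 3 the median was 0.02. At an unadjusted p under 0.05 there were 0 higher and 1 lower (1.71% and 1.66% over all genes). The lower one was Bub1b, which was dim, with 8.54, 4.51 and 9.78 against 39.8, 49.6 and 21.1 (-2.26 ± 0.68), without overlap. Only 10 of the 28 genes had a mean signal above the median of all probe sets.

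The endoplasmic reticulum stress list had 6 of 24 higher (median -0.08). Herpud1, part of the degradation machinery of the endoplasmic reticulum, had 5409, 6799 and 4247 in CUMS 1, 2 and 3 and 3826, 3944 and 3732 in CUMS 4, 5 and 6 (0.49 ± 0.16, interval 0.14 to 0.84), without overlap, and 0.32 without CUMS 2. The chaperone Calr had 4346, 3654 and 2996 against 4751, 4350.1 and 5219 (-0.39 ± 0.14), also without overlap but lower. The other chaperones Hspa5 (-0.22 ± 0.15) and Hsp90b1 (-0.12 ± 0.11) overlapped. NRF2 targets and antioxidants had 5 of 22 higher (median -0.11), among them lower Txn1, thioredoxin, with 15136, 13889.9 and 14385 against 16579, 17339.6 and 16778 (-0.22 ± 0.10). The male and growth hormone pattern list had 7 of 23 higher (median -0.14), which became 0.0055 without CUMS 3. CUMS 3 was the lowest for 11 of the 23, with Cyp2c11, the main male cytochrome P450, at 14947 against 19681 to 25837 in the other 5. Bcl6, a repressor under growth hormone control, had 2647, 2675 and 3452 against 855, 1772 and 2763 (0.85 ± 0.35) and overlapped through CUMS 6. Without CUMS 4 the Bcl6 difference was 0.39.

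**Figure D5:**
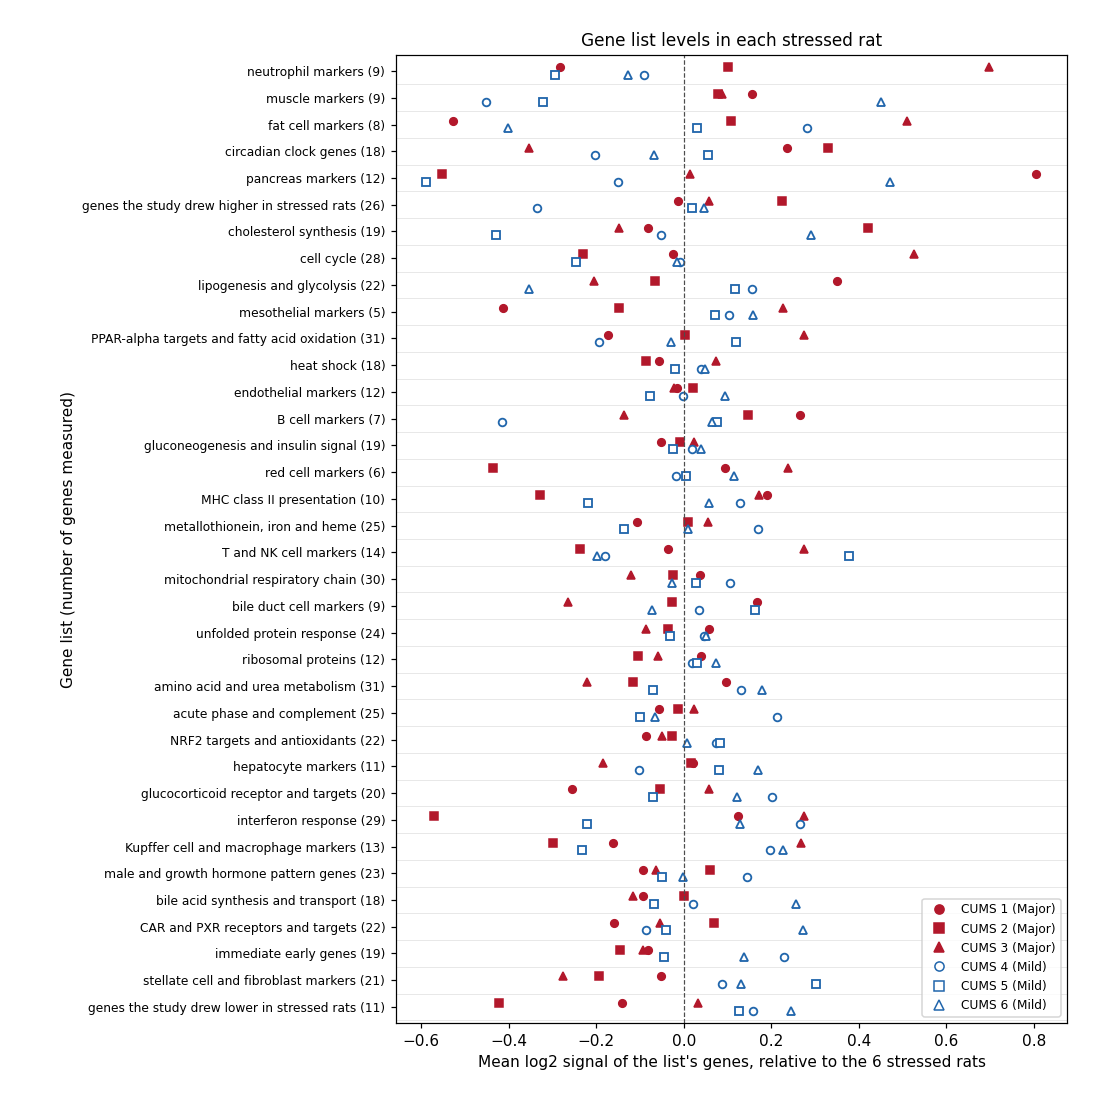
Mean log2 signal of each of 36 gene lists in each stressed rat, relative to the mean of the 6 stressed rats, with the number of genes measured in brackets (symbols as in the plot of the leading genes). Filled symbols lie left of all open ones for 4 of the 36 lists (stellate cell and fibroblast markers, immediate early genes, NRF2 targets and the genes drawn lower by the study) and right of them for 0. Over all single probe sets these shares were 4.35% and 4.87%. A list value is a mean over several genes, so these shares are not its background. The 4 lists are not separate, since Igfbp3 and Col14a1 stand in 2 of them, and the genes drawn lower were chosen from these same arrays. Elsewhere single rats stand out, such as CUMS 3 for neutrophil markers and cell cycle and CUMS 2 for interferon response.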

How the data were processed

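Liver RNA of 9 GK rats, 1 array each, was hybridised to a 1-colour Affymetrix rat expression array. The deposited intensities were made by the authors with MAS 5.0 (submitters' processing notes), which subtracts background and mismatch signal and scales each array. Here they were floored at 1 (396 signals of the 6 arrays lay below it) and taken to log2, with no further scaling. Detection calls and the other deposited columns were not used. Of 31099 probe sets, 57 spike-in and control sets were left out. Of the rest, 20826 had 1 gene symbol, 436 several and 9780 none, and none was named from several. For gene lists, the probe set of highest mean signal stood for its gene (14217 genes).

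Groups came from the depression label of each rat. CUMS 1–3 and CUMS 4–6 were compared with limma (version 3.58.1, R 4.3.3, lmFit and eBayes with a trend) on these 6 arrays with Benjamini-Hochberg adjustment over all probe sets, and with the ANOVA and fold limits of the study. Scripts were tested on simulated data. Each rat is 1 replicate, and the number of arrays limits the precision. The 24 named genes are the 12 of smallest p in each direction with their own symbol, signal above the median, at least 1.5-fold difference and no overlap. The members and lists were chosen with earlier results of these data known. Promoters came from RefSeq on GRCr8. Alternatives covered quantile normalization, centring on the median, a floor of 16, adding 50 to the signal, filters on low signals, all 9 arrays, no trend, array weights, Welch variances, another fold limit or scale, and leaving out rats.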

Additional observations from a re-analysis of the deposited data

How the results depend on the processing

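With 3 rats per label, limma called 0 probe sets in 15 of 16 alternatives. A floor of 16 called 2, at an adjusted limma p of 0.0450, which were Nkx2-3 (38.9, 38.9 and 39.6 against 9.60, 11.9 and 16.7) and an unnamed probe set (7.90, 7.28 and 13.5 against 54.5, 54.3 and 53.2). Most of their lower signals were set to the floor and so lost their spread. The smallest adjusted p was 0.0656 without the variance trend. No paired analysis was possible because the labels share no replicate number.

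Counts at an unadjusted p under 0.05 were 302 higher and 302 lower with the lower 40% of probe sets left out and 196 and 196 in the upper 40%, where fewer were tested. Without CUMS 5 or CUMS 6, 63.9% and 63.7% of them were higher, against 55.9% with all 6 rats, 49.7% after quantile normalization and 47.0% without CUMS 1. At the limits of the study, higher and lower counts were 105 and 5 after adding 50 to the signal, 63 and 8 without the lower 40%, and 12 and 0 in the upper 40%, so that most probe sets within these limits had dim signals. The lower count was 295 with a limit of 1/1.5, and from 159 to 266 on leaving out single rats (266 without CUMS 1 and 263 without CUMS 3). The likeness of arrays reversed to -0.00219 in the upper 40% of probe sets (exact permutation p = 0.4).

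Of 36 gene lists, 13 kept the sign of their median in every alternative, among them stellate cell and fibroblast markers, immediate early genes, NRF2 targets and the CAR and PXR list. The sign turned for 18 on leaving out a single rat and for 5 after quantile normalization. Without both CUMS 2 and CUMS 4, the medians were -0.04 for clock genes, -0.09 for cholesterol synthesis and 0.17 for the interferon response. Over 89 genes, 1371 of 1397 values kept their direction, but part of this count was fixed in advance. Adding the control arrays to the fit or dropping the variance trend changes no difference and no list median. Filters on low signals leave the difference of each remaining probe set as it was. Genes chosen for no overlap between the labels cannot turn when rats are left out. The count therefore does not measure how robust the directions are. Without CUMS 2 and CUMS 4, these turned: Usp18 (0.052), Nr3c1 (0.076), Nr1i3 (-0.084), Ehhadh (-0.053), Pank3 (-0.011), Glyatl2 (-0.17), Topbp1 (-0.16) and Rpusd3 (0.060). After quantile normalization Cps1 (0.12) and Apoa1 (0.0039) did. On leaving out single rats, differences crossed 0 for Ahsp (-0.072 to 0.57), Nr3c1 (-0.27 to 0.19), Nr1i3 (-0.0044 to 0.49), Cyp3a18 (-0.23 to 0.099), Vnn1 (-0.23 to 0.17), Topbp1 (-0.038 to 0.28), Cyp17a1 (-0.058 to 0.52), Rpusd3 (-0.17 to 0.041), Cps1 (-0.086 to 0.084) and Apoa1 (-0.22 to 0.032). The causes were not tested.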

Other observations

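Several gene groups have not yet been described, and the genes named in them were chosen after their values were seen. Acute phase and complement genes, made by hepatocytes in inflammation, had lower means in CUMS 1–3 for 18 of 25 (median -0.09, and 0.0097 after quantile normalization), with 0 at an unadjusted p under 0.05. Itih4 had signals of 27997, 28679 and 25171 in CUMS 1, 2 and 3 and 30196, 31472 and 32689.7 in CUMS 4, 5 and 6 (-0.21 ± 0.11), and Fga, the alpha chain of fibrinogen, 30136, 29554 and 26079 against 31636, 31720.4 and 35242 (-0.20 ± 0.11), both without overlap. A2m (alpha-2-macroglobulin) was at 17568 in CUMS 2 and between 3411 and 6878 in the other 5. Among genes of metallothionein, iron and heme, 12 of 25 had higher means (median -0.05, or 0.08 without CUMS 3). Uros, an enzyme of heme synthesis, had 96.1, 129 and 118 against 232, 152 and 179.6 (-0.70 ± 0.26), but its second probe set, of similar brightness, lay in the opposite direction without overlap, with 116, 145 and 164 against 113, 99.2 and 97.2 (0.45). Hfe, a regulator of hepcidin, had 787, 607 and 427 against 1022, 721 and 801 (-0.51 ± 0.22), with CUMS 1 above CUMS 5, and Id1, a target of bone morphogenetic protein signals, 193, 306 and 221 against 155, 137 and 179.8 (0.59 ± 0.24). Heat shock genes had 8 of 18 higher (median -0.0072, or 0.04 without CUMS 6). Hspa1a, the inducible HSP70, was at 242 in CUMS 4 and between 79.8 and 134 in the other 5. Of 10 genes of MHC class II presentation 2 had higher means (median -0.05, or 0.12 without CUMS 2), and CUMS 2 was the lowest for 7 of them.

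In 3 further genes, CUMS 4 had the highest signal. Cish, a feedback inhibitor of growth hormone signalling, was at 887 in CUMS 4 and between 64.5 and 251 in the other 5 stressed rats. Socs2, of the same family, was at 611 against 95.8 to 249. Ppargc1a, a coactivator of gluconeogenesis and oxidation, was at 1038 against 152 to 355. In the whole male and growth hormone list CUMS 4 was the highest of the 6 rats for 6 of 23 genes and CUMS 2 for 7. Controls covered similar ranges, with 248, 38.0 and 570.5 for Cish and 232, 771 and 315 for Ppargc1a.

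Markers of further cell types that a piece of liver could hold are given by their counts, and the median of each of these lists except muscle changed sign on leaving out a single rat. Bile duct markers had 4 of 9 higher (median -0.07, or 0.09 without CUMS 3), B cell markers 3 of 7 (median -0.02, or 0.21 without CUMS 5), T and NK cell markers 6 of 14 (median -0.05, or 0.11 without CUMS 2) and red cell markers 2 of 6 (median -0.04, or 0.12 without CUMS 6). Fat cell markers had 5 of 8 higher (median 0.23, or -0.05 without CUMS 3), mesothelial markers 3 of 5 (median 0.05, or -0.23 without CUMS 5) and pancreas markers 7 of 12 (median 0.20, or -0.27 without CUMS 1). Gcg, the glucagon gene, was at 49.6 in CUMS 1 and between 2.80 and 6.44 in the other 5. The 9 muscle markers had 6 higher means (median 0.36, or 0.035 without CUMS 5, 0.061 without CUMS 3 and 0.030 with a floor of 16), with dim summed signals of 312 to 365 in CUMS 1–3 and 201 to 291 in CUMS 4–6.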
